A study of Populus tomentosa with 12 samples.

Results

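A set of 48 genes had lower transcript levels in iron-deficient roots of Populus tomentosa (Chinese white poplar) than in iron-sufficient roots, while the Fe groups overlapped in shoots. The genes were chosen by their measured root and shoot levels, out of 20269 genes that passed the filter on low counts in both tissues and of 42950 gene IDs in all. A gene was taken where its mean over the 6 root libraries was at least 5 CPM (counts per 1000000 counted reads, scaled by TMM within each tissue) and where its lowest Fe-sufficient root library was at least 1.75 times its highest Fe-deficient one. The ranges of the Fe groups in shoots also had to overlap. The root part of this rule was met by 63 genes, of which 9 were lower and 6 higher in Fe-deficient shoots without overlap and were left out. The rule turned the other way, for genes raised in Fe-deficient roots, gave 31 genes, and the same rule applied to shoots, with overlap in roots, gave 57 raised and 22 lowered genes.

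Plantlets raised in vitro on agar with 1.5% sucrose and 1 mg/L NAA (a synthetic auxin, which promotes rooting) were moved into nutrient solution. The groups were roots of plants at 0 µM Fe (Fe-deficient), roots at 100 µM Fe (Fe-sufficient), shoots at 0 µM Fe and shoots at 100 µM Fe, with 3 libraries each. All plants were at the seedling stage, had shoots of about 10 cm when selected, and grew at 24 °C with 16 h of light. The sources used here state neither the time without Fe nor how many plants went into a library, so the p-values measure the spread between these libraries. Gene counts summed to between 8663523 and 10886552 per library in roots and between 5360670 and 6149779 in shoots.

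Iron is a cofactor of respiratory and photosynthetic electron carriers and of many other enzymes. Dicot plants such as poplar take it up at the root surface by acidifying the surroundings, reducing ferric to ferrous iron and importing the ferrous ion. When iron runs short, plants usually raise the genes of this uptake route in roots and lower genes for iron storage and for iron-rich processes, an economy best described in Arabidopsis. The files give gene IDs without names or descriptions, and none of the 42950 IDs matched the 60139 genes of the reference table used here, so no function is given to any of the 48 genes and no sequence is shown. The genes are described below by level, response, tissue and place in the gene list.

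Together the 48 genes took 0.175% to 0.208% of gene counts in Fe-deficient root libraries, against 0.507% to 0.572% in Fe-sufficient ones. In shoots their share was 0.286% to 0.352% in Fe-deficient and 0.276% to 0.293% in Fe-sufficient libraries. The root groups stand apart in the summed share because the genes were selected on it, while the shoot groups overlap. In bulk tissue, fewer cells of a type and less RNA per cell cannot be told apart.

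The size of the fall varied among the genes. The mean level in Fe-deficient roots was 10.8% to 50.7% of that in Fe-sufficient roots, with a median of 32.9%. It was at or under 25% in 12 genes and over 50% in 1 gene, Potri.006G103400. The ratio of the lowest Fe-sufficient to the highest Fe-deficient library was at least 3 in 8 genes, at least 2 in 24 and under 2 in the other 24. Just inside the threshold of 1.75 lay Potri.001G147300 with a ratio of 1.754, Potri.001G126700 with 1.757 and Potri.011G155600 with 1.76. Just outside it lay Potri.010G192400 with 1.748, and Potri.011G158500 and Potri.005G022600 with 1.732 each, so the edge of the set is not a gap in the data.

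**Figure D1:**
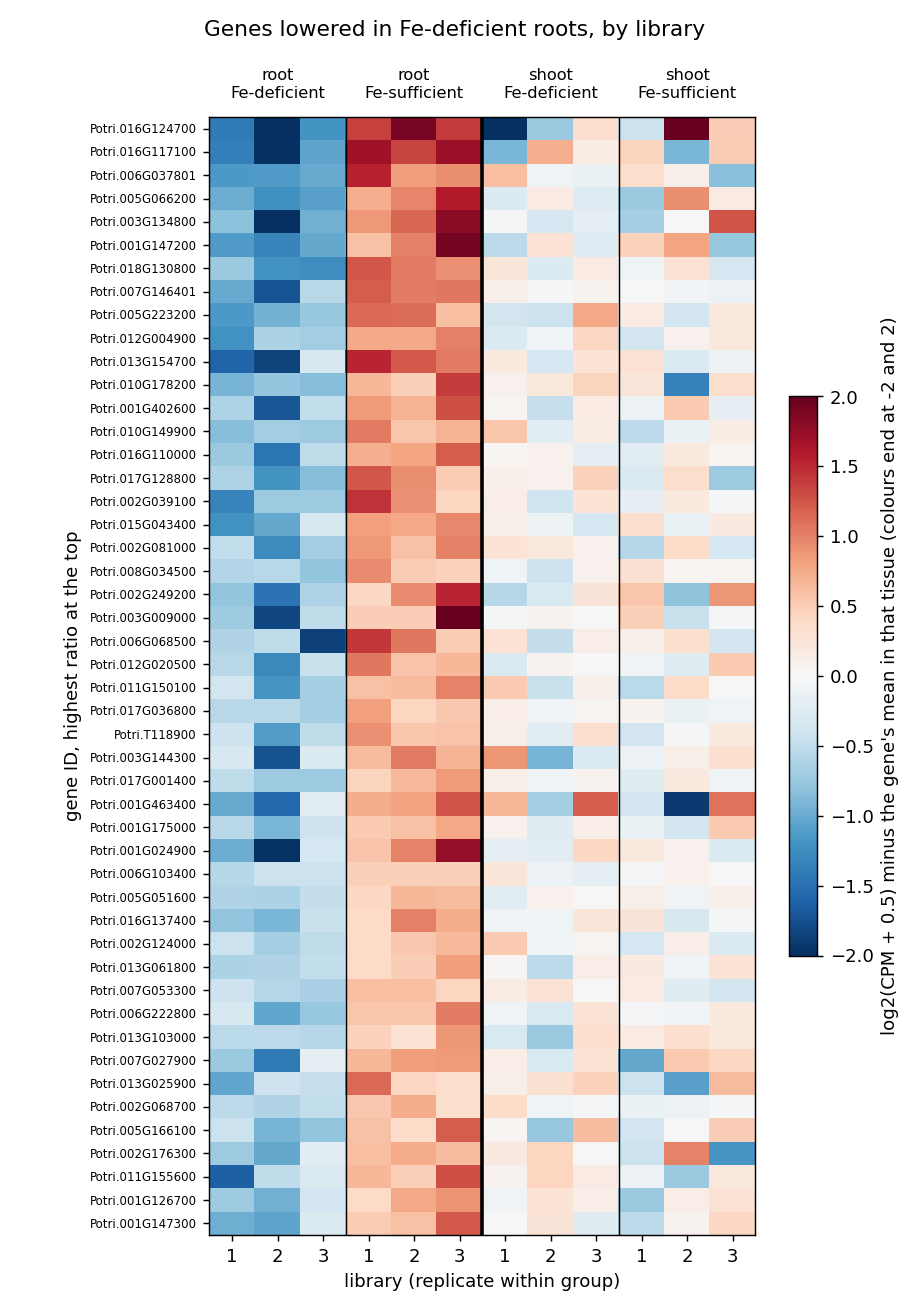
Level of each of the 48 genes (rows, highest ratio at the top) in each of the 12 libraries (columns, Fe-deficient left of Fe-sufficient within roots and within shoots), as log2(CPM + 0.5) minus the gene's mean in that tissue. Every gene is lower in the 3 Fe-deficient root libraries than in the 3 Fe-sufficient ones, as the rule requires, and the shoot columns show no common pattern.

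The genes with the largest separation were weakly to moderately expressed. Potri.016G124700 stood at 9.04, 5.68 and 10.6 CPM in Fe-deficient roots, against 64.9, 94.3 and 66.3 CPM in Fe-sufficient roots. Potri.016G117100 had 5.75, 2.73 and 7.27 CPM in Fe-deficient roots and 51.8, 40.8 and 52.8 CPM in Fe-sufficient roots. In these genes the Fe-deficient level was 11.2% and 10.8% of the Fe-sufficient one, and the spread within a supply was small beside the gap between supplies. Their log2 fold changes, Fe-deficient over Fe-sufficient, were -3.15 ± 0.260 and -3.19 ± 0.319 (SE, edgeR).

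The next in order of ratio were lower genes, whose Fe-deficient values rest on few reads. Potri.006G037801 had 2.70, 2.73 and 3.02 CPM in Fe-deficient roots (23 to 34 counts), against 20.1, 12.1 and 13.003 CPM in Fe-sufficient roots (119 to 189 counts). Its Fe-deficient libraries lay close together while the Fe-sufficient ones were spread by replicate 1. Potri.005G066200 showed 5.05, 4.21 and 4.70 CPM in Fe-deficient roots and 17.8, 21.0 and 32.5 CPM in Fe-sufficient roots. Potri.003G134800 showed 5.16, 1.93 and 4.61 CPM in Fe-deficient roots and 17.6, 21.7 and 34.5 CPM in Fe-sufficient roots. In these last genes the highest Fe-sufficient library was replicate 3.

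Of the 5 most abundant members, 3 fell less than the median of the set and 2 fell further. Potri.013G061800, the highest of the set, had 521, 536 and 573 CPM in Fe-deficient roots, against 1059, 1142 and 1452 CPM in Fe-sufficient roots. Potri.017G036800 had 358, 355 and 325 CPM in Fe-deficient roots, against 927, 707 and 761 CPM in Fe-sufficient roots. For both, the Fe-deficient libraries differed from each other by far less than the Fe-sufficient ones did, and the level fell to 44.6% and 43.3% of that with Fe. Potri.018G130800 fell further, at 216, 157 and 153 CPM in Fe-deficient roots and 857, 741 and 684 CPM in Fe-sufficient roots, which is 23.05% of the level with Fe. It combines a large fall with 1379 to 1837 counts in every Fe-deficient library, so it is among the best measured falls of the set (log2 fold change -2.12 ± 0.179, SE).

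The others of the 5 were far lower in shoots than in roots. Potri.006G222800 had 202, 123 and 149 CPM in Fe-deficient roots and 370.2, 373 and 515 CPM in Fe-sufficient roots. Potri.001G463400 had 53.8, 36.2 and 92.8 CPM in Fe-deficient roots and 181, 189.9 and 259.9 CPM in Fe-sufficient roots. The level without Fe was 37.7% of that with Fe in Potri.006G222800 and 28.97% in Potri.001G463400. The Fe-deficient libraries of Potri.001G463400 spread widely, with replicate 3 highest, and still lay below every Fe-sufficient one.

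**Figure D2:**
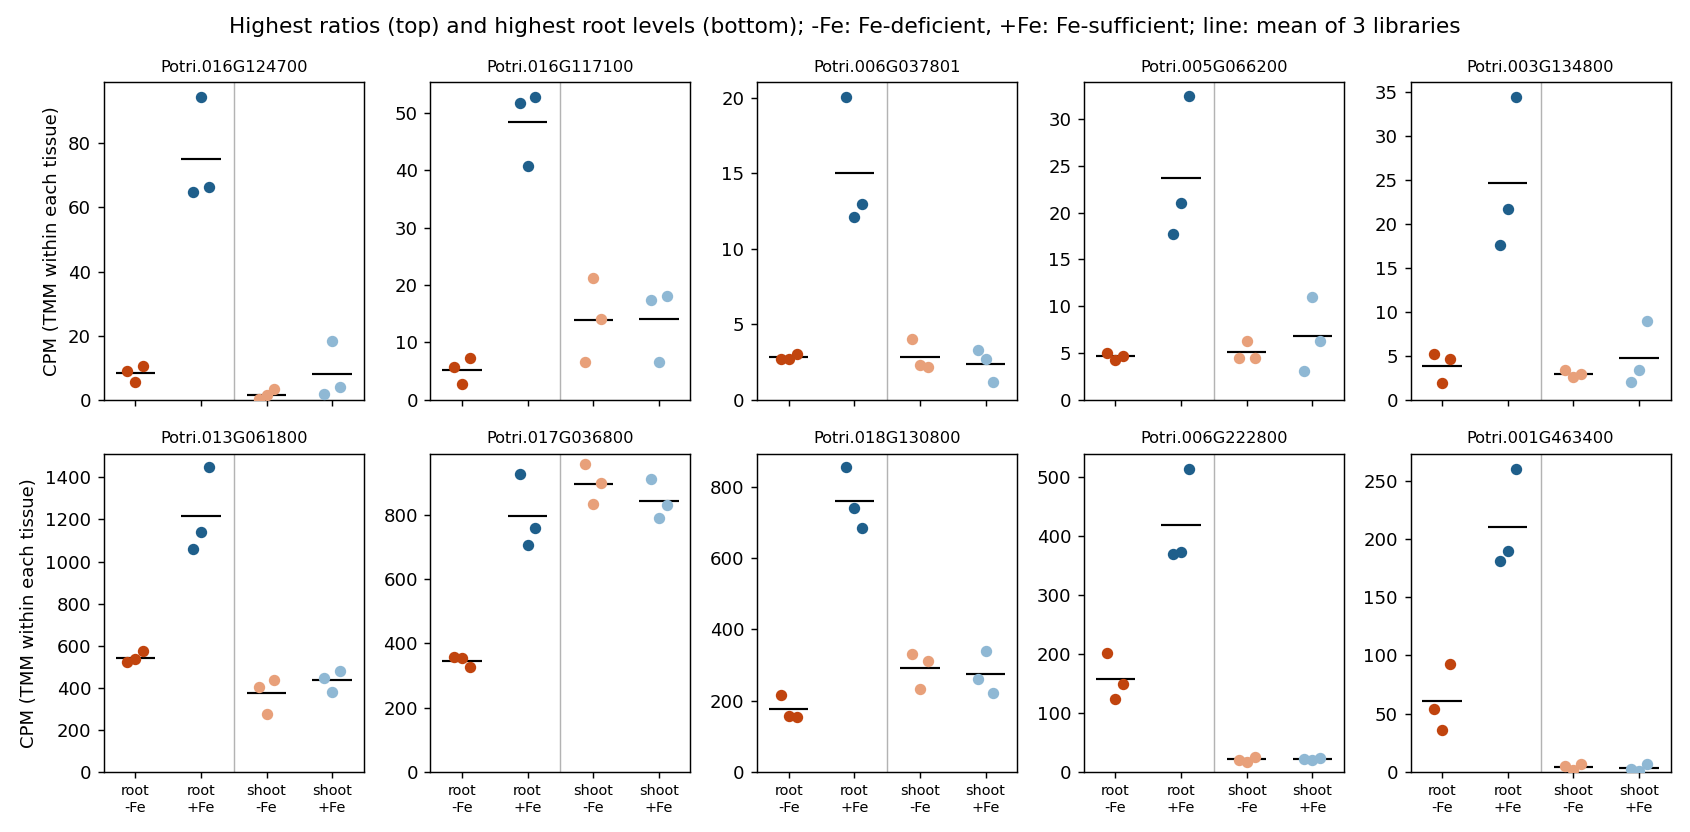
CPM (scaled within each tissue, linear axis from 0) in every library for the 5 genes with the highest ratio (top row) and the 5 with the highest root level (bottom row); each point is 1 library and each line the mean of 3. In roots all Fe-deficient points lie below all Fe-sufficient points, in shoots the groups overlap, and the 2 lowest genes in shoots of the bottom row are Potri.006G222800 and Potri.001G463400.

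Over the whole set the root level ranged from 5.54 to 880.4 CPM as the mean of 6 libraries, with a median of 22.2 CPM, against 27.4 CPM over the 17282 genes that passed both filters with a root mean of at least 5 CPM. A mean of at least 100 CPM was found in 6 genes, 20 to 100 CPM in 22 and less than 20 CPM in 20. The lowest count behind any Fe-deficient root value was 14, and 9 genes had a Fe-deficient library with fewer than 30 counts. For these genes counting error adds to the spread between libraries.

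Of the 48 genes, 32 passed as lower in roots without Fe (quasi-likelihood test of edgeR, Benjamini-Hochberg adjusted p under 0.05 over 23785 tested genes), beside 0.37% of all tested genes. DESeq2 called all 48, beside 2.83% of tested genes. Fe-deficient libraries all lay below all Fe-sufficient ones in 11.2% of tested genes. The rule used the same contrast and asked for separated groups, so these counts describe the set and are no evidence for it. The median log2 fold change was -1.60 (range -3.19 to -0.98), against 0.01 over all tested genes. Leaving out 1 root library took the edgeR count to 0 without Fe-sufficient replicate 2, to 7 and 15 without Fe-sufficient replicates 1 and 3, and to 1, 4 and 7 without Fe-deficient replicates 1, 2 and 3. No gene was called in all 6 of these fits, and Potri.018G130800 was called in 5 of them. Such fits have fewer libraries to test on, and the share of all tested genes called in them is not given here. The lower counts therefore cannot be read as a trait of the 48 genes.

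The 48 genes were chosen with every root library, so no root library was left to test them on. To describe the rule itself, it was applied again without 1 Fe-deficient and 1 Fe-sufficient root library, for all 9 such pairs. The libraries left out were then set against each other. Each run chose 105 to 221 genes, more than with all libraries, since fewer libraries must separate. Of the chosen genes, 72.4% to 92.1% were lower in the left-out Fe-deficient library than in the left-out Fe-sufficient one, against 49.6% to 51.4% of all eligible genes. A fall of at least 2-fold was seen in 19.9% to 54.3% of the chosen genes, against 2.36% to 4.47% of eligible genes. The median log2 difference in the left-out libraries was -1.04 to -0.48, smaller in every run than the -1.44 to -1.27 in the libraries that chose the genes. The falls quoted above for the 48 genes come from the libraries that chose them and carry the same kind of excess. The 9 runs share libraries, so they are a description and are not independent. They score genes chosen anew in each run. Any of the 48 genes chosen again is at least 1.75-fold lower in the left-out pair by the full rule, so the shares and medians above were in part fixed in advance. No support for the 48 genes is drawn from these runs.

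**Figure D3:**
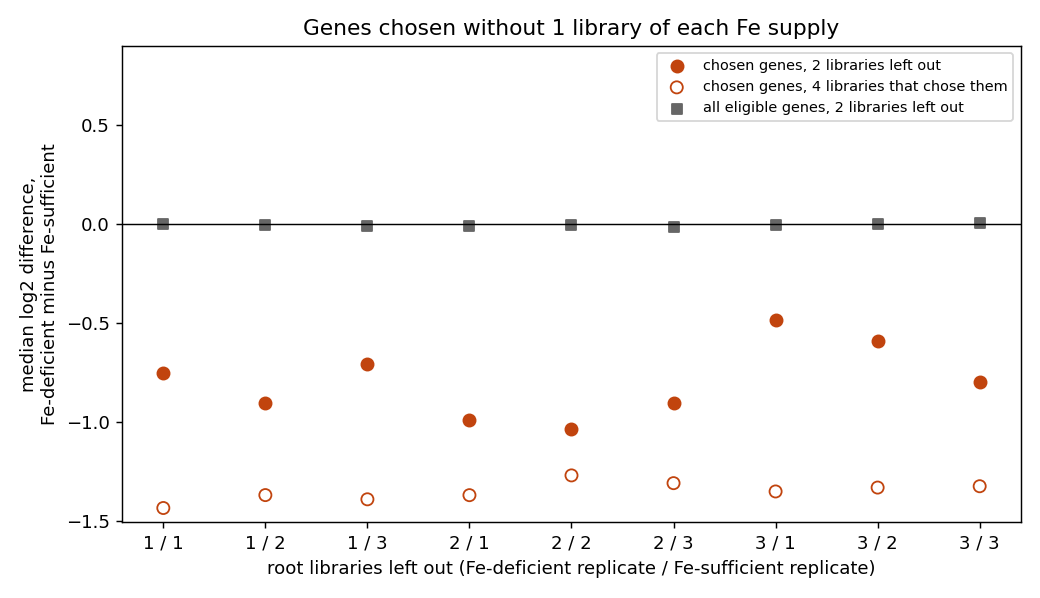
Median log2 difference, Fe-deficient minus Fe-sufficient, of genes chosen without 1 root library of each Fe supply (horizontal axis: the 9 pairs left out). Filled circles give the 2 libraries left out (-1.04 to -0.48), open circles the 4 libraries that chose the genes (-1.44 to -1.27), and squares all eligible genes in the left-out libraries, near 0. The chosen genes include members of the full set, whose fall in the left-out pair was fixed by the rule.

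Leaving out a single root library is a weaker comparison, since all libraries of the other supply took part in the choice. Without Fe-deficient replicates 1, 2 and 3 the rule chose 91, 67 and 126 genes, and the left-out library lay below every Fe-sufficient library in 91.2%, 98.5% and 84.1% of them, against 29.99% to 33.7% of eligible genes. Without Fe-sufficient replicates 1, 2 and 3 it chose 98, 71 and 86 genes, and the left-out library lay above every Fe-deficient library in 89.8%, 91.5% and 90.7% of them, against 25.8% to 29.6%. The libraries of the other supply had been chosen on for their extreme values, which favours these shares over those of eligible genes. No support is drawn from them. The 6 root omissions kept 47 or 48 of the 48 genes. Leaving out a root library can hardly lower a gene's ratio, so that count was fixed in advance, and leaving out a shoot library can break an overlap and seldom make one. Over all 12 omissions, root and shoot, 23 genes met the rule every time.

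Replicates of a supply differed in their levels of the 48 genes. Among Fe-deficient roots, replicate 2 was the lowest library for 31 of the 48 genes and its median deviation from the group mean was -0.20 on the log2 scale, against 0.07 in replicate 1 and 0.17 in replicate 3. Among Fe-sufficient roots, replicate 3 was the highest for 26 genes, with a median deviation of 0.12, against -0.10 and -0.09 in replicates 1 and 2. Over all tested genes these median deviations were at most 0.01 in size, but TMM scaling draws them towards 0. The share of all tested genes that were lowest or highest in these libraries is not given here. The counts therefore cannot be read as a trait of the 48 genes. The widest Fe-sufficient spread belonged to Potri.003G009000, at 6.22, 2.62 and 7.27 CPM in Fe-deficient roots and 14.99, 15.04 and 45.9 CPM in Fe-sufficient roots, where replicate 3 stood far above the others. The next widest was Potri.001G147200, at 6.10, 5.23 and 6.65 CPM in Fe-deficient roots and 21.3, 28.7 and 54.5 CPM in Fe-sufficient roots, again with replicate 3 highest.

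At the other end, Potri.006G103400 had 11.9, 13.2 and 13.1 CPM in Fe-deficient roots and 25.1 CPM in each Fe-sufficient root library. It shows the smallest fall of the set and also the tightest Fe-sufficient group. Potri.002G176300 had 28.1, 22.9 and 40.2 CPM in Fe-deficient roots and 71.4, 79.0 and 71.9 CPM in Fe-sufficient roots. The median coefficient of variation of the 48 genes was 24.2% in Fe-deficient and 19.0% in Fe-sufficient roots, against 14.2% and 12.6% over the eligible genes. In shoots it was 19.1% in Fe-deficient and 25.7% in Fe-sufficient libraries, against 13.8% and 19.0%. The eligible genes were not matched to the 48 by level, and counting error is larger in lower genes. Variability at equal level was not compared.

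In shoots the rule asked for overlapping groups, so the absence of a common shift there is in part a product of the choice. The median shoot log2 fold change was 0.02 (range -2.28 to 0.60), with 23 genes below 0 and 25 above. The group means differed by at most 1.25-fold in 35 genes and by at least 1.75-fold in 1, Potri.016G124700. None of the 48 genes was called in shoots by edgeR (0 at adjusted p under 0.05, beside 1.16% of 21665 tested genes; 0 at unadjusted p under 0.05, beside 9.09%) or by DESeq2 (0, beside 2.39%). Without shoot Fe-sufficient replicate 2, edgeR called 2 of them, both higher in Fe-deficient shoots. They were Potri.002G081000 (0.65 ± 0.158, SE) and Potri.002G176300 (1.00 ± 0.241, SE), named here after their values were seen. How many of all tested genes that fit called is not given here. The overlap of both genes in shoots came from Fe-sufficient replicate 2 alone. It stood at 96.3 CPM in Potri.002G081000, against 50.3 and 58.7 CPM in the other Fe-sufficient shoots. In Potri.002G176300 it stood at 48.5 CPM, against 17.8 and 10.3 CPM.

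The gene with the highest root ratio was also the least settled in shoots. Potri.016G124700 had 0.155, 1.38 and 3.43 CPM in Fe-deficient shoots, against 1.83, 18.5 and 3.90 CPM in Fe-sufficient shoots. Its shoot log2 fold change was -2.28 ± 1.06 (SE), in the same direction as in roots. Its counts were 1, 9 and 22 in Fe-deficient shoots and 10, 102 and 20 in Fe-sufficient shoots. The overlap of its groups rests on the libraries with few reads, while Fe-sufficient replicate 2 stood far above all others. Potri.016G117100 had 6.52, 21.3 and 14.0 CPM in Fe-deficient shoots and 17.4, 6.52 and 18.1 CPM in Fe-sufficient shoots. Its means were close, at 13.96 and 14.03 CPM, but its libraries spread widely within each supply (coefficients of variation of 53.0% and 46.4%).

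The difference between the root and the shoot response was fitted in all 12 libraries. It was called in 18 of the 48 genes by edgeR, with the root response below the shoot response in each, beside 0.595% of 25046 tested genes. DESeq2 called 36, beside 1.51%. Both responses entered the rule, so these counts too are a description. For the other 30 genes edgeR did not show that roots and shoots responded differently, and the fall cannot be called particular to roots. The response in roots less that in shoots, on the log2 scale, came to -2.20 ± 0.293 for Potri.018G130800 and -1.29 ± 0.217 for Potri.017G036800 (SE), and both were called in each of 12 fits that left out 1 library. The same held for Potri.007G146401 (-2.28 ± 0.304) and Potri.017G001400 (-1.40 ± 0.235), which were picked out by this count. Potri.007G146401 had 7.28, 4.21 and 10.1 CPM in Fe-deficient roots and 35.5, 31.1 and 32.1 CPM in Fe-sufficient roots. In shoots it had 55.9, 51.2 and 54.5 CPM without Fe and 52.1, 49.8 and 48.0 CPM with Fe. Potri.017G001400 had 29.1, 24.8 and 24.9 CPM in Fe-deficient roots and 56.9, 65.1 and 75.5 CPM in Fe-sufficient roots. Both stayed within a narrow band in shoots, that of Potri.017G001400 running over 13.96 to 15.98 CPM without Fe and 12.3 to 16.8 CPM with Fe. For Potri.016G124700 the difference was -0.85 ± 1.09 and was not called. The count of 18 was 6 without shoot Fe-deficient replicate 1, 8 without shoot Fe-sufficient replicate 1, 8 and 9 without shoot Fe-deficient replicates 2 and 3, 7 without root Fe-sufficient replicate 2, and 10 and 9 without root Fe-deficient replicates 1 and 2. For these fits too the share of all tested genes called is not given.

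**Figure D4:**
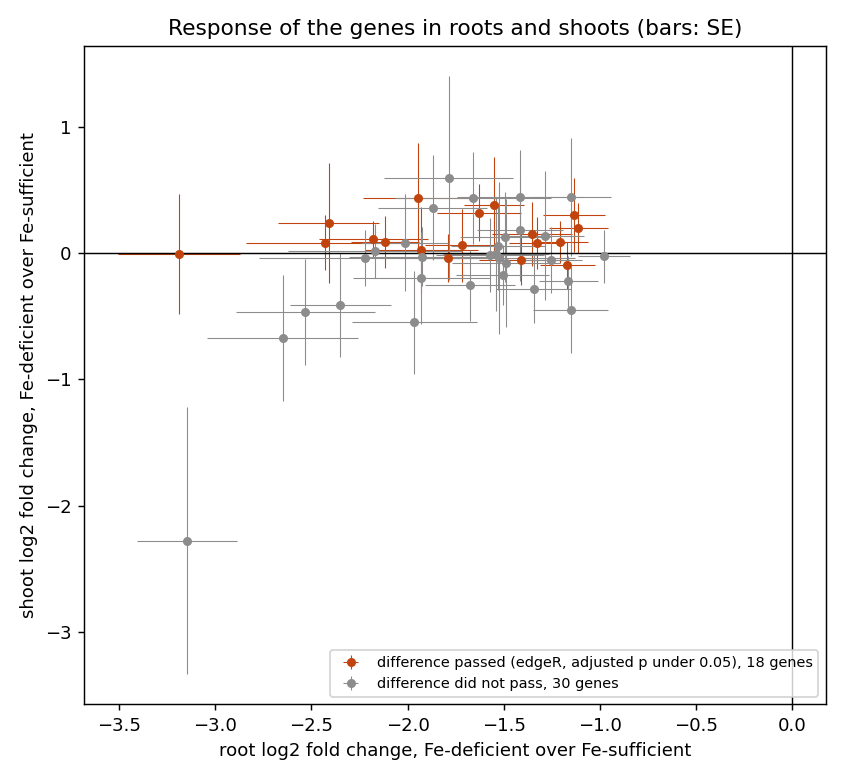
Log2 fold change, Fe-deficient over Fe-sufficient, in roots (horizontal) and shoots (vertical) for the 48 genes, with SE bars from edgeR. All root values lie below 0 by the rule; shoot values centre on 0.02, and the 18 genes whose responses were called different are coloured. The lowest point is Potri.016G124700.

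Levels in roots and shoots were then compared in 1 fit of all 12 libraries. That fit scaled all 12 libraries together, so its differences need not match the CPM values given here, which are scaled within each tissue. Averaged over both Fe supplies, 29 of the 48 genes were higher in roots than in shoots (edgeR, adjusted p under 0.05; 37.9% of tested genes) and 9 were lower (35.6% of tested genes), and 10 did not pass. The median log2 difference, root minus shoot, was 0.74, against 0.06 over all tested genes and 0.13 over the eligible ones. The rule set a mean of at least 5 CPM in roots, while in shoots it asked for no more than the filter on low counts, and the average gives both Fe supplies equal weight. Of the reads that were assigned, ambiguous or outside genes, 1.249% to 1.41% lay outside genes in roots, against 49.5% to 50.04% in shoots, and tissue cannot be told apart from whatever set those shares.

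The genes ranged from nearly root-restricted to shoot-dominated ones. Potri.001G463400 had 4.66, 1.53 and 7.02 CPM in Fe-deficient shoots and 2.02, 0.362 and 6.44 CPM in Fe-sufficient shoots, far below its root levels. Its log2 difference, root minus shoot, was 4.58 ± 0.445 (SE; edgeR, adjusted p 1.45e-06), the largest of the set. Potri.007G027900 followed, with 29.5, 18.3 and 43.5 CPM in Fe-deficient roots and 78.4, 88.4 and 89.5 CPM in Fe-sufficient roots. In shoots Potri.007G027900 had 2.64, 1.84 and 2.96 CPM without Fe and 0.917, 3.62 and 3.32 CPM with Fe, a log2 difference of 3.91 ± 0.269 (SE; edgeR, adjusted p 1.43e-08).

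At the shoot end stood Potri.013G154700, with 4.81, 3.98 and 12.4 CPM in Fe-deficient roots and 46.0, 37.5 and 32.8 CPM in Fe-sufficient roots. Its shoot levels were 408, 282 and 429 CPM in Fe-deficient and 434, 290.2 and 331 CPM in Fe-sufficient libraries, roughly an order of magnitude higher than in roots with Fe. The log2 difference, root minus shoot, was -4.84 ± 0.267 (SE; edgeR, adjusted p 1.95e-09). Potri.006G068500 had 56.9, 60.7 and 23.5 CPM in Fe-deficient roots and 231, 179.9 and 124 CPM in Fe-sufficient roots. Its shoot levels were 559.9, 329.8 and 502 CPM without Fe and 492, 571 and 355 CPM with Fe, for a log2 difference of -2.76 ± 0.257 (SE; edgeR, adjusted p 4.6e-07). Genes with more transcript in shoots than in roots thus also belong to the set.

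The rule asked for a root fall and for overlap in shoots, so a change in the order of the tissues between Fe supplies is largely built in. Without Fe, 10 of the 48 genes were higher in roots (31.6% of tested genes) and 15 lower (31.3%). The 15 are close to the share over all tested genes. With Fe, 39 were higher in roots (32.7% of tested genes) and 5 lower (31.2%). The median log2 difference, root minus shoot, was -0.05 without Fe and 1.52 with Fe. The rule picked genes with low Fe-deficient and high Fe-sufficient root values, which pushes these counts apart, and no test is drawn from the step between them. By their calls, 23 genes stood above the shoot with Fe and did not differ detectably from it without Fe, 10 stood above it at both supplies and 6 stood above it with Fe and below it without. Shares of such patterns over all tested genes are not given here, so these counts describe the set only. The 6 genes above the shoot with Fe and below it without were Potri.016G117100, Potri.018G130800, Potri.005G223200, Potri.010G178200, Potri.006G103400 and Potri.002G068700. These calls depend on the scaling across tissues. Without Fe, Potri.006G103400 had 11.9, 13.2 and 13.1 CPM in roots and 15.7, 12.1 and 11.5 CPM in shoots, which overlap when scaled within each tissue. Scaled over all 12 libraries, its means without Fe were 11.1 CPM in roots and 15.1 CPM in shoots. Potri.005G223200, for example, had 3.99, 4.66 and 5.41 CPM in Fe-deficient roots and 21.3, 21.2 and 14.6 CPM in Fe-sufficient roots. Its shoot levels were 4.50, 4.30 and 10.6 CPM without Fe and 6.79, 4.53 and 7.02 CPM with Fe. Without Fe its root and shoot libraries overlapped on this scale, and shoot replicate 3, with 68 counts against 29 and 28, stood above the rest. Potri.002G068700 moved less, with 15.6, 14.8 and 15.9 CPM in Fe-deficient roots and 33.2, 38.3 and 28.5 CPM in Fe-sufficient roots. Its shoot levels were 23.7, 17.3 and 17.8 CPM without Fe and 16.5, 16.8 and 17.9 CPM with Fe, all between those of the root groups, each scaled within its tissue. The 5 genes below the shoot at both supplies were Potri.007G146401, Potri.013G154700, Potri.006G068500, Potri.017G036800 and Potri.013G025900. Both groups were named by their calls. Over the whole set the shoot level ranged from 1.78 to 871.4 CPM as the mean of 6 libraries, with a median of 7.57 CPM, and 15 genes were under 5 CPM in shoots.

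**Figure D5:**
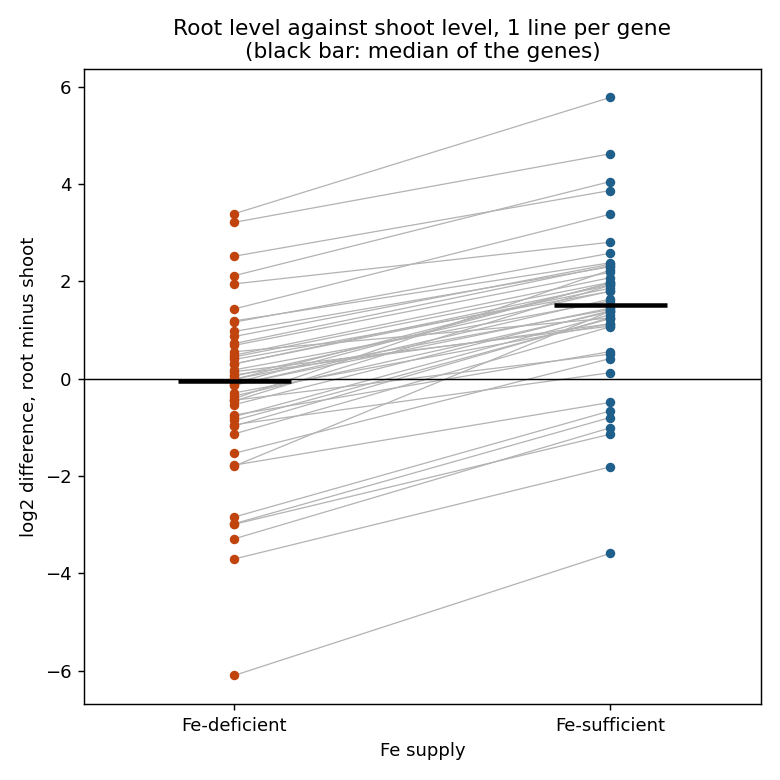
Log2 difference, root minus shoot, of each of the 48 genes in Fe-deficient (left) and Fe-sufficient plants (right), joined by a line per gene; black bars are medians over genes. The median lies at -0.05 without Fe and 1.52 with Fe, and the lowest line is Potri.013G154700.

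The 48 genes were spread over the gene list. Their IDs carry 16 of the 20 number or letter prefixes found in the files, with at most 7 genes in 1 prefix (001, with 14.6% of the set and 12.001% of eligible genes). A single pair of members is listed next to each other, Potri.001G147200 and Potri.001G147300, and the next closest members lie 56 positions apart. Of the 94 other genes listed directly beside a member, 52 were tested in roots. Their median log2 fold change was -0.15, 8 of them (15.4%) were lower in Fe-deficient roots without overlap, against 11.2% of all tested genes. None of the 52 was called lower by edgeR (0 at adjusted p under 0.05), beside 0.37% of all tested genes. At unadjusted p under 0.05 edgeR had 8 lower, for which no share over all genes is given here. DESeq2 called 5 lower, beside 2.83% of all tested genes. One of the 8 without overlap was Potri.001G147400 (-0.92; edgeR, adjusted p 0.133), listed next to the pair. The lowest fold changes among the 8 were those of Potri.001G024800 (-1.89; edgeR, adjusted p 0.115), beside the member Potri.001G024900, and Potri.006G037900 (-1.54; edgeR, adjusted p 0.0942), beside Potri.006G037801. These neighbours were named after their values were seen. Whether neighbouring genes are near-identical copies that share reads, or overlap, was not analysed here, so their levels are uncertain to that extent.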

How the data were processed

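RNA from roots and shoots was sequenced by the study in 12 libraries, 3 per group. Values deposited by the authors are raw, unscaled counts per gene ID and library. The submitters' processing notes name HISAT2 2.0.5, HTSeq 2.2.1, Trimmomatic 0.36 and edgeR 3.16.5. The genome build, annotation and strand setting were not given in the sources used here. Left out were the 5 rows of reads not counted to any gene ID (58.3% to 73.1% of a library's reads). These rows include ambiguous reads as well as reads outside genes, so this is not the share of reads outside genes. Groups came from the labels' characteristics, on which every direction rests; the CK and WT in shoot titles are not explained. Root replicates were numbered in accession order and shoot replicates by their titles, and no pair of libraries held identical counts. The labels speak of biological replicates without saying what plants they came from.

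Counts were filtered with filterByExpr (minimum count 10) by Fe supply within each tissue, or by the 4 groups for fits of all 12 libraries, and scaled by TMM. Tests were the robust quasi-likelihood F test of edgeR 4.0.16 in R 4.3.3 over all tested genes, with Benjamini-Hochberg adjustment and no covariates. DESeq2 1.42.0 was an alternative. Each SE was computed as the size of the log2 change over the root of its F statistic. Deviations and left-out values used log2(CPM + 0.5).

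The genes and tests were chosen with earlier results of these data known. Named genes were the 5 with the highest ratio, the 5 with the highest root level, the 3 on either side of the threshold, and the 2 at each extreme of the tissue difference and of the Fe-sufficient range; others are marked. The lists of iron, hormone and other genes were defined on gene descriptions, which the files lack, and were not tested. The code was tested on simulated data. Counting error shrinks with depth, so lower genes are less precise.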

Additional observations from a re-analysis of the deposited data

Results flagged for a closer look

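Roots and shoots responded differently to Fe supply in 18 of the 48 genes, by a contrast in 1 edgeR fit of all 12 libraries, beside 0.595% of the 25046 tested genes with the root response below that of shoots. The count was 6 to 15 without 1 library, in fits whose share over all tested genes is not given. On the log2 scale the root response less the shoot response was -3.18 for Potri.016G117100, -2.64 for Potri.006G037801, -2.51 for Potri.013G154700, -2.20 for Potri.018G130800, -1.35 for Potri.006G222800 and -1.29 for Potri.017G036800. Each was called at an adjusted p by edgeR under 0.05. The genes had been chosen for a root fall without a shoot shift, which favours such differences, so these values describe the set. Of the 12 fits that left out 1 library, Potri.016G117100 was called in 4, Potri.006G037801 and Potri.013G154700 in 6 each, Potri.006G222800 in 1, and Potri.018G130800 and Potri.017G036800 in all 12.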

How the results depend on the processing

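The set held 48 genes. It held 121 at a ratio of at least 1.5, 24 at a ratio of at least 2, and 41 to 126 without 1 library. The root median of -1.60 was -1.79 to -1.53 without 1 root library. The 32 root calls by edgeR became 0 to 15. The shoot median of 0.02 was -0.055 to 0.12, and the 0 shoot calls by edgeR became 0 to 2 (Potri.002G081000 and Potri.002G176300, without shoot Fe-sufficient replicate 2). The 18 genes with unlike responses were 36 by DESeq2 and 6 to 15 by edgeR without 1 library. Without Fe, the 10 genes higher in roots were 8 to 12 and the 15 lower ones 12 to 15. With Fe, the 39 higher ones were 37 to 40 and the 5 lower ones 3 to 6. With the average of both Fe supplies, 29 genes were higher and 9 lower. The average and the omissions for shoot calls and unlike responses were chosen after seeing the data.

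Without shoot Fe-deficient replicate 3 the difference between tissues of Potri.016G124700 was 0.23, against -0.85 with all libraries and -2.36 without shoot Fe-sufficient replicate 2. Its groups in shoots rest on few reads, apart from 102 counts in shoot Fe-sufficient replicate 2. Omissions also leave fewer libraries to test on, and the share of that in the lost calls was not tested. How many of all tested genes were called in those fits is not given here. The shoot titles number the replicates of both supplies, and deviations of same-numbered libraries had correlations of -0.16, -0.00 and 0.12, so they share a number and were not taken as pairs. In a fit with the number as replicate block, the shoot median was 0.01 and 0 of the 48 genes were called in shoots by edgeR.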
